A study of Mus musculus with 9 samples.

Results

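Liver RNA was examined for 8 enzymes that make, activate or inactivate steroid hormones: Hsd3b2, Hsd3b3, Hsd3b5, Cyp17a1, Hsd17b2, Hsd11b1, Srd5a1 and Akr1c6. Of these, 7 had a probe set annotated to them alone, among 18193 genes measured in all. The annotation used here names no probe set for Srd5a1, the steroid 5α-reductase, so it has no value below. The enzymes were chosen by name with their array signals in db/db and BKS liver, and the difference between them, already known, so these differences between the genotypes are given as a description, without a test. The study compared liver of male db/db mice, the strain BKS.Cg-Leprdb, in which the leptin receptor is defective and which is used as a model of obesity with type 2 diabetes, with that of male C57BL/KSlepr+/+ (BKS) mice, whose receptor gene is intact. All mice were 14 weeks old and had free access to regular chow, and the series describes the 2 genotypes as littermates. One Affymetrix array was run per sample, for 5 BKS and 4 db/db samples. The labels number the samples but do not tie each to its own animal, so every error and p-value reflects only how far these samples lie apart, which may be technical. In whole liver, fewer cells of a type and less RNA per cell cannot be told apart.

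Steroid hormones are cleared largely by the liver, which oxidises or reduces their hydroxyl and keto groups, saturates their ring A and couples them to sulfate or glucuronic acid. In rodents many of these enzymes differ between the sexes, because the pulsed growth hormone release of males and the steadier release of females act on the liver through the transcription factor STAT5. The 3β-hydroxysteroid dehydrogenases are a family of closely related enzymes. Hsd3b1 is the form of the adrenal gland and gonads, whereas Hsd3b5 is a liver form that is typical of male mice and reduces 3-ketosteroids. Cyp17a1 adds the hydroxyl group that opens the way to androgens and then cleaves the side chain. Hsd17b2 oxidises testosterone and estradiol to weaker hormones, Akr1c6 catalyses reductions at the same carbon of the steroid, and Hsd11b1 turns inactive 11-dehydrocorticosterone back into corticosterone.

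Hsd3b5, Hsd3b2 and Hsd3b3 follow each other in this order on chromosome 3 of the mouse assembly GRCm38.p6, between Hsd3b4 on one side and Hsd3b6 and Hsd3b1 on the other among the genes of this family. Their upstream sequences are shown because the 3 neighbours differed widely in their db/db signal. Each is the 250 bases before the start site that RefSeq gives, read 5′ to 3′ on the gene's own (minus) strand, from the C57BL/6J reference and not from the mice studied. Of the 2 RefSeq windows of Hsd3b3, identical at 248 of 249 columns, the first is shown. It belongs to a start site inside the span given for the gene (98741476 to 98764540). The windows of Hsd3b5 and Hsd3b2 lie just outside the spans of their genes, so the 3 are not placed alike. Capitals mark the only run of at least 12 bases that stood at matching places in the aligned Hsd3b5 and Hsd3b3 sequences.
Hsd3b5 (chr3:98645535-98645784, minus strand): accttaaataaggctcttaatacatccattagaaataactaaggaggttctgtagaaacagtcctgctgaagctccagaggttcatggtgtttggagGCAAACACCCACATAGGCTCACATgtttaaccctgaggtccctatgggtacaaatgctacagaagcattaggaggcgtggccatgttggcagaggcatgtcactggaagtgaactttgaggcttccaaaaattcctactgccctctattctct
Hsd3b3 (chr3:98763129-98763378, minus strand): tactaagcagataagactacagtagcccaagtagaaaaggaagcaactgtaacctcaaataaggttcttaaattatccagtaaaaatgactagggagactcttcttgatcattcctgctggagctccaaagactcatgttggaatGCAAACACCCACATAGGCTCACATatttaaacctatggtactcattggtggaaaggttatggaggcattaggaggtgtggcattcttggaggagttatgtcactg
Hsd3b2 (chr3:98724544-98724793, minus strand): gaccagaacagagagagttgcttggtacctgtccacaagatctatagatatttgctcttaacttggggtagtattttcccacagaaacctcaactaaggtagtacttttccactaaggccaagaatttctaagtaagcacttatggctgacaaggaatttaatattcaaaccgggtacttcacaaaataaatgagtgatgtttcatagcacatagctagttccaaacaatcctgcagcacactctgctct

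The upstream sequences of Hsd3b5 and Hsd3b3 were identical at 151 of 202 aligned columns (74.8%), and shared the marked run of 24 bases. Hsd3b2 was identical to Hsd3b5 at 47.5% and to Hsd3b3 at 48.3% of aligned columns. The letters TTCNNNGAA (the core motif of STAT5), ATCAAT (HNF6 and CUX2), AGGTCA (a nuclear receptor half-site), TGTTCT (a steroid receptor half-site) and TATAAA (the core promoter box of that name) were searched on both strands, with matches allowed to overlap. They occur in 7.02%, 6.72%, 14.0%, 16.1% and 12.4% of 32851 RefSeq windows of this length. Of the 6 enzymes with a window, Hsd3b2 held TGTTCT on the reverse strand from base 246 before the start and Akr1c6 held TATAAA from base 164 before it. The other 4, Hsd3b5, Hsd3b3, Hsd11b1 and Srd5a1, held none of these letters in the 250 bases.

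Features of the arrays bear on these enzymes. Control probe sets for 18S ribosomal RNA split the arrays into a set of 5 with signals of 22.2 to 43.5 (BKS 1 to 3, db/db 1 and 2) and a set of 4 with signals of 1873 to 19771 (BKS 4 and 5, db/db 3 and 4). Both sets hold both genotypes, so differences are also given within each. The ratio of the 3′ to the 5′ control signal of Gapdh was 1.53 on BKS 1 and 1.77 on BKS 4. On the other arrays it was 0.80 to 1.09. The part of this ratio in the results was not tested. Markers of hepatocytes such as Alb (albumin) were bright on every array. None of the 41 measured markers of hepatocytes, macrophages, stellate cells, endothelium, bile duct, lymphocytes and fat cells passed between the genotypes (limma with Benjamini-Hochberg adjustment). Of them 13 had an unadjusted p under 0.05. Over all 18193 genes 5.49% passed and 3208 had an unadjusted p under 0.05. That none passed does not show an equal mix of cells. The 7 macrophage markers had summed signals of 3109 to 8758 in BKS and 1821 to 4992 in db/db, with a median log2 difference of -0.64. The 4 bile duct markers had summed signals of 475.4 to 722.6 in BKS and 219.8 to 554.3 in db/db (median -0.77). The medians of the other lists were 0.02 for hepatocytes, 0.20 for stellate cells, 0.08 for endothelium, -0.22 for lymphocytes and 0.25 for fat cells. Some single markers of endothelium and stellate cells stood higher in db/db without passing, such as Pecam1 (1.55, SE 0.52) and Des (1.03, SE 0.32), both picked after their values were seen. Both were dim, with signals of 6.8 to 191.9 and 29 to 168.9. Of the 7 endothelial markers 4 were positive and 3 negative, such as Cdh5 (-0.37, SE 0.33). Of the 7 stellate markers 5 were positive and 2 negative, such as Col3a1 (-0.52, SE 0.25). The part of these cells in the results was not tested.

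BKS 1 carried RNA of enzymes that make steroids in the adrenal gland and gonads. Hsd3b1 stood at 985.6 on BKS 1 and at 8.30 to 26.9 on the 8 other arrays. The cholesterol transfer protein Star (482.3 against 12.5 to 35.9 on its clearest probe set), the first enzyme of steroid synthesis Cyp11a1 (202.0 against 2.80 to 15.3), the adrenal hydroxylase Cyp11b1 (962.7 against 6.10 to 112.3) and Cyp21a1 (409.1 against 12.7 to 97.2) were also highest there. Of 14 probe sets for Hsd3b1 and 7 other adrenal and gonadal genes, 11 were highest on BKS 1. This count uses deposited signals, and BKS 1 had the highest median signal of the arrays (110.8, against 67.4 to 96.6 on the others). The share of all probe sets that were highest on BKS 1 was not counted. The clearest probe sets were picked after their values were seen. Each enzyme below is therefore also given without BKS 1, and both the number of enzymes called higher and the number called lower were the same without it.

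**Figure D1:**
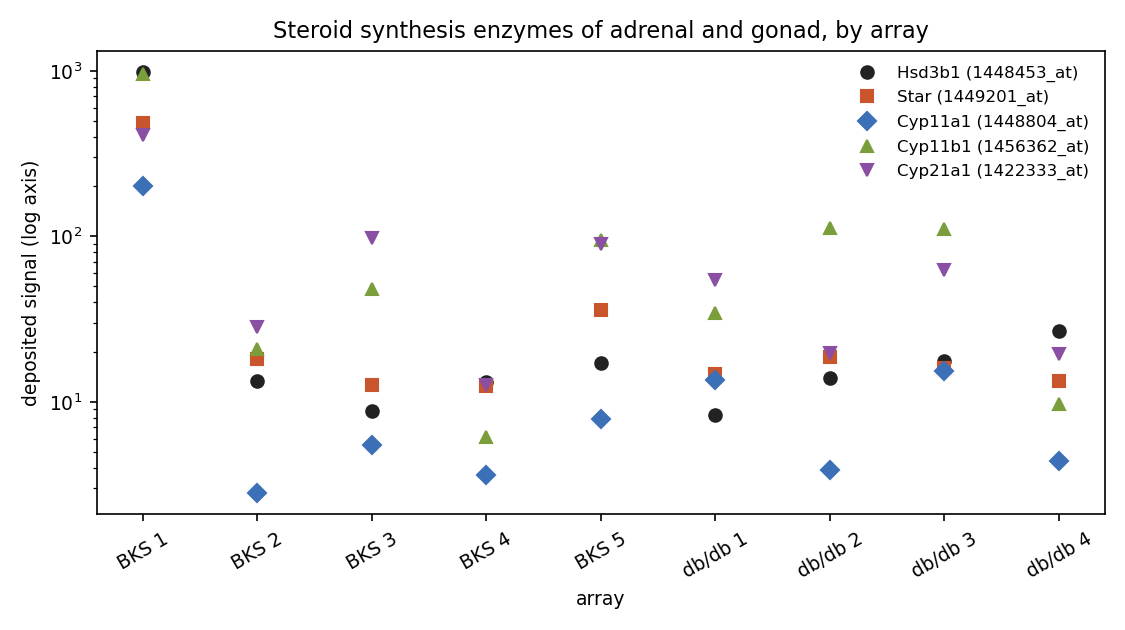
Deposited signal (log axis) of 5 steroid synthesis genes of adrenal and gonad on each of the 9 arrays, 1 probe set a gene, with a symbol for each gene. All 5 are highest on BKS 1, where Hsd3b1 is at 985.6, and the other 8 arrays have 8.30 to 26.9 for it.

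Among the 7 measured enzymes, Hsd3b5, Hsd3b2 and Hsd17b2 were lower and Cyp17a1 was higher in db/db liver, while Hsd3b3, Akr1c6 and Hsd11b1 differed by less than 1.5-fold. In the fit over all genes 4 of 7 were called (limma, Benjamini-Hochberg adjusted p under 0.05), where 5.49% of all genes were called. One of them was called higher (1 of 7, against 2.89% of all genes) and 3 lower (2.60%). The groups did not overlap for 6 of 7 (9.15% of all genes), 1 with db/db above (4.73%) and 5 with db/db below (4.42%). Since these values were known when the enzymes were chosen, nothing is read from the counts. The median log2 difference of the 7 was -0.50, and that of all genes was -0.00.

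**Figure D2:**
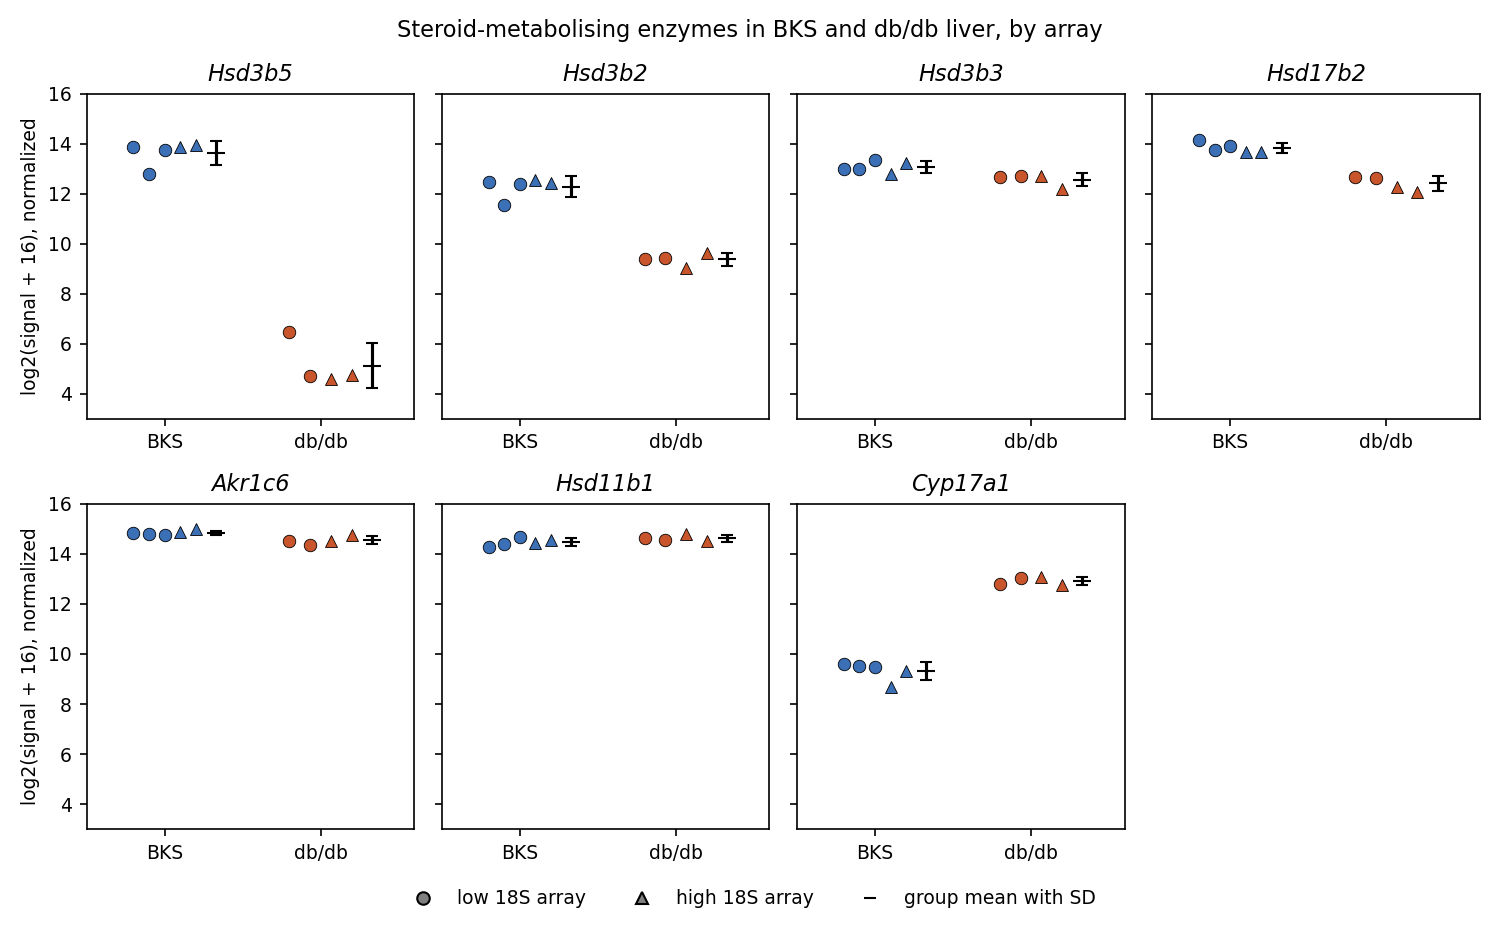
Normalized log2(signal + 16) of the 7 measured enzymes on each array, BKS in blue and db/db in orange, circles for arrays with low and triangles for arrays with high 18S signal, and black bars for the group mean with its SD (n = 5 and 4). Hsd3b5 falls from 12.79 or more in BKS to 6.46 or less in db/db, Cyp17a1 lies the other way round, and the groups of Hsd11b1 overlap.

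Hsd3b5 had the widest gap between the genotypes among the 7 enzymes. Its deposited signal was 14121, 6526, 12350, 18294 and 17362 on BKS 1 to 5, and 69.0, 12.8, 8.40 and 7.90 on db/db 1 to 4. Every BKS array was thus bright and every db/db array dim, with 3 of the 4 db/db signals below the median signal of any array (67.4 to 110.8). The signal of db/db 1 (69.0) lay below the median of its own array (83.6). After normalization it stood at 13.64 ± 0.48 in BKS and 5.13 ± 0.88 in db/db on the log2 scale (SD, n = 5 and 4), a difference of -8.51 (SE 0.36). BKS 2 lay below the other BKS arrays (12.79 against 13.75 to 13.93), and db/db 1 lay above the other db/db arrays (6.46 against 4.61 to 4.76). The size of the difference depends on the amount added before taking logs, because the db/db signals are so low: it was -9.52 with 1 and -7.22 with 64 in place of 16. It was -7.88 within the low 18S arrays, -9.22 within the high 18S arrays and -8.49 without BKS 1.

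Hsd3b2, its neighbour on the chromosome, was lower in db/db too but remained bright. Its signal was 5372, 2902, 5156, 6417 and 5640 on BKS 1 to 5, and 664.4, 702.6, 471.4 and 770.2 on db/db 1 to 4. The highest db/db array lay well below the lowest BKS array, BKS 2, which was also the lowest for Hsd3b5. The log2 level was 12.27 ± 0.42 in BKS and 9.38 ± 0.25 in db/db, a difference of -2.89 (SE 0.20) that left 13.5% of the BKS level. The difference was -2.72 within the low and -3.13 within the high 18S arrays, and -2.85 without BKS 1.

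Hsd3b3 changed little on its brightest probe set. The signal there was 7613, 7291, 9603, 7689 and 10243 on BKS 1 to 5, and 6391, 6222, 6952 and 4900 on db/db 1 to 4. The groups did not overlap, but their gap was narrow. The log2 level was 13.06 ± 0.23 in BKS and 12.56 ± 0.25 in db/db, with a difference of -0.50 (SE 0.14), -0.41 and -0.56 within the low and high 18S arrays and -0.52 without BKS 1. Its name marks this probe set as one that can also bind related transcripts (suffix _x_at), so part of its signal may belong to other members of the family.

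A second probe set of Hsd3b3 followed the 18S signal of the arrays and not the genotype. Its signal was 2884, 4189 and 3856 on BKS 1 to 3 and 2199 and 2183 on db/db 1 and 2, the arrays with low 18S signal. It was 164.9 and 254.6 on BKS 4 and 5 and 420.7 and 378.6 on db/db 3 and 4, those with high 18S signal. The mean was higher by 3.18 on the log2 scale in the low than in the high 18S arrays. The difference between the genotypes was -0.36 (SE 0.89) over all arrays, -0.78 within the low and 0.85 within the high 18S arrays, so this probe set gives no settled direction.

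A further probe set is annotated to Hsd3b6, Hsd3b3 and Hsd3b2 together. Its signal was 7953, 7007, 8272, 7509 and 8560 on BKS 1 to 5, and 5341, 5601, 3792 and 3899 on db/db 1 to 4, again without overlap. The difference of -0.79 (SE 0.15) lay between those of Hsd3b3 and Hsd3b2. It cannot be assigned to 1 of the 3 genes, and no probe set annotated to Hsd3b6 alone was used here.

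**Figure D3:**
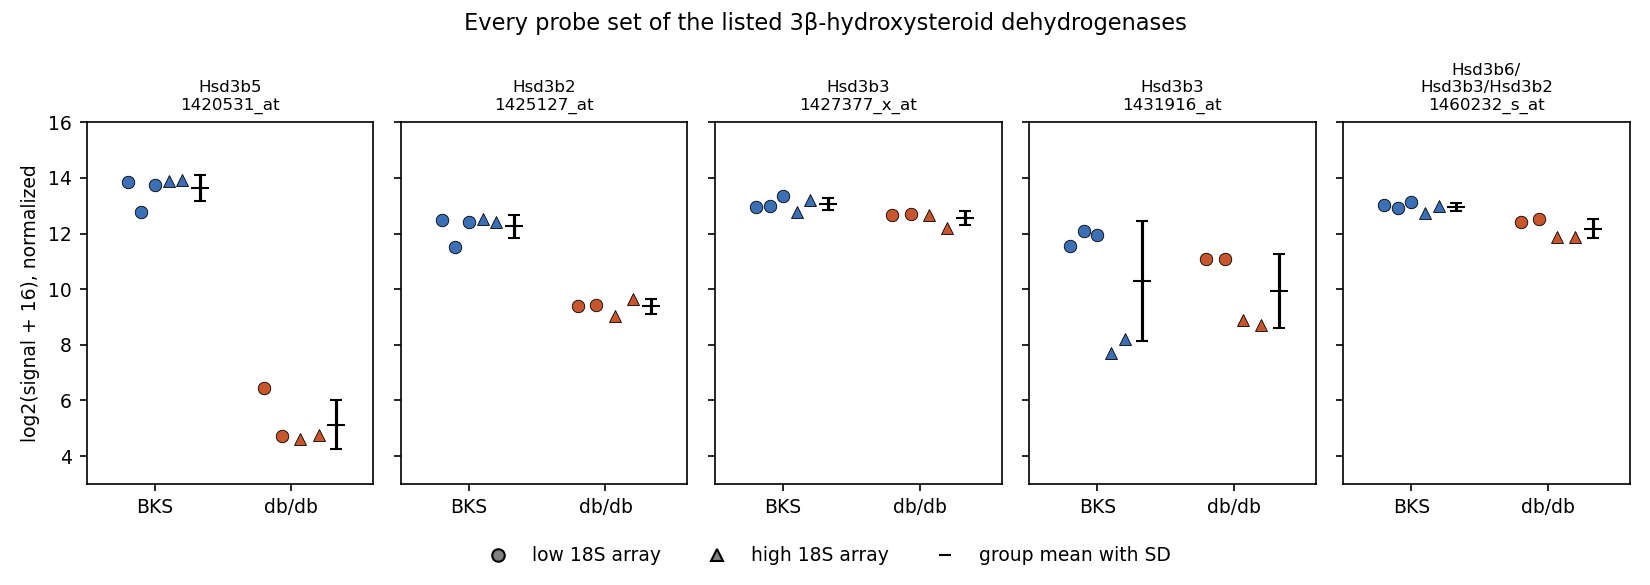
Normalized log2(signal + 16) of all 5 probe sets annotated to Hsd3b5, Hsd3b2 and Hsd3b3, with the probe set's name above each panel; colours, symbols and bars as for the plot of the 7 enzymes (bars are SD, n = 5 and 4). The second Hsd3b3 probe set is split by the 18S signal (circles above triangles) in both genotypes, whereas the Hsd3b5 and Hsd3b2 probe sets are split by genotype.

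Cyp17a1 was the only measured enzyme of the group with a clearly higher signal in db/db liver. Its signal was 767.9, 753.9, 723.5, 355.1 and 605.3 on BKS 1 to 5, and 6978, 7671, 9363 and 7391 on db/db 1 to 4. The lowest db/db array lay far above the highest BKS array, and the db/db arrays lay close together. The log2 level was 9.32 ± 0.37 in BKS and 12.92 ± 0.15 in db/db, a difference of 3.60 (SE 0.18), or 12.1-fold. The difference was 3.38 within the low and 3.93 within the high 18S arrays. Without BKS 1, the array with adrenal and gonadal enzymes, it was 3.69.

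Hsd17b2, which inactivates testosterone and estradiol, was lower in db/db. Its signal was 18606, 11944, 13871, 15129 and 14434 on BKS 1 to 5, and 6420, 6010, 5154 and 4452 on db/db 1 to 4. All db/db arrays lay below all BKS arrays. The log2 level was 13.83 ± 0.21 in BKS and 12.41 ± 0.30 in db/db, a difference of -1.41 (SE 0.15) that left 37.6% of the BKS level. It was -1.28 within the low and -1.49 within the high 18S arrays, and -1.33 without BKS 1.

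Akr1c6, the reductase that acts at the same carbon as Hsd17b2, was bright in both genotypes. Its deposited signal was 31377, 21971, 23263, 41304 and 38315 on BKS 1 to 5, and 19860, 17673, 28531 and 29784 on db/db 1 to 4. Before normalization the groups overlapped. On the normalized log2 scale they did not, with 14.84 ± 0.09 in BKS and 14.54 ± 0.15 in db/db, but the gap between the highest db/db and the lowest BKS array was smaller than either SD. The difference was -0.30 (SE 0.10), with -0.33 and -0.29 within the low and high 18S arrays and -0.30 without BKS 1.

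Hsd11b1, which regenerates corticosterone, was close to equal in both genotypes. Its signal was 20299, 17946, 22146, 28562 and 27742 on BKS 1 to 5, and 21137, 19640, 35083 and 24941 on db/db 1 to 4, with overlapping groups. The log2 level was 14.46 ± 0.16 in BKS and 14.61 ± 0.13 in db/db. The difference was 0.15 (SE 0.11), and its 95% interval ran from -0.08 to 0.39. It was 0.15 within both sets of arrays and 0.10 without BKS 1.

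**Figure D4:**
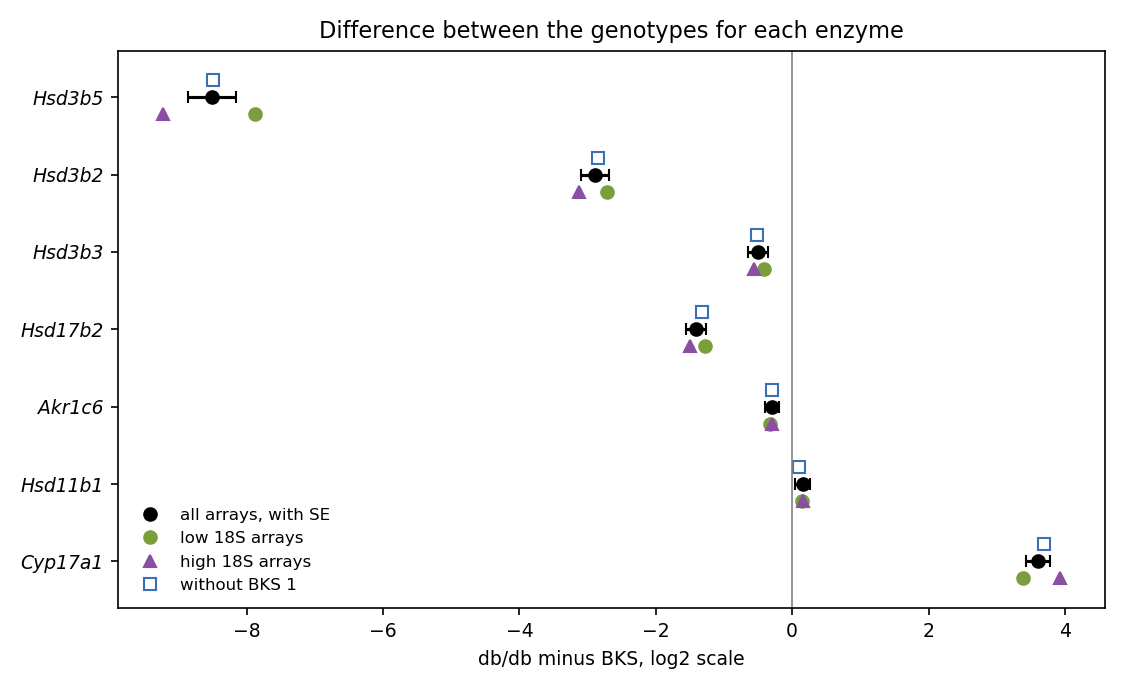
Difference between db/db and BKS on the log2 scale for each measured enzyme: black points for all 9 arrays with the SE of the fit, green circles within the low and purple triangles within the high 18S arrays, and open squares without BKS 1. For every enzyme drawn the 4 points lie on the same side of 0, from -8.51 for Hsd3b5 to 3.60 for Cyp17a1 over all arrays.

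The genes whose levels ran most nearly parallel to an enzyme over the 9 arrays were found by Pearson's r among the 9096 genes brighter than the median gene. For Hsd3b5 these were Cyp7b1, an oxysterol hydroxylase (r = 0.994), Moxd1 (0.992) and complement component Hc (0.991). Hsd3b2 was most like Ppm1m, a protein phosphatase (0.991), Cyp7b1 (0.985) and Saa4, a serum amyloid (0.983). Cyp17a1 was most like Fmo1, a flavin monooxygenase (0.992), Vldlr, a lipoprotein receptor (0.989), and Prodh, which degrades proline (0.988), and Hsd17b2 most like Cbfb, a subunit of a transcription factor (0.992). For these enzymes the genotypes lie apart, so r mostly restates the difference between the groups. For Hsd11b1, whose groups overlap, the most similar were the retinoic acid hydroxylase Cyp26a1 (0.935), the glycine decarboxylase Gldc (0.934) and Lrp4 (0.911). For every enzyme these genes were picked as the highest among the 9096 over only 9 arrays. How high r would run by chance in such a pick was not tested.

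The wider steroid pathway was followed through 9 lists of genes drawn from textbook knowledge. Of the 94 measured genes on them 20 rose and 15 fell in db/db liver (limma, Benjamini-Hochberg adjusted p under 0.05), where 5.49% of all genes were called. Their median log2 difference was 0.03 and that of all genes -0.00. These lists were also made with results of these data known. Without BKS 1 the counts were 20 and 11. Each call below was repeated with 1 array left out in turn (9 fits) and under 14 other settings of the normalization, filter, probe set rule and model, 2 of them added after the data were seen. Losses of calls are given beside the genes.

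**Figure D5:**
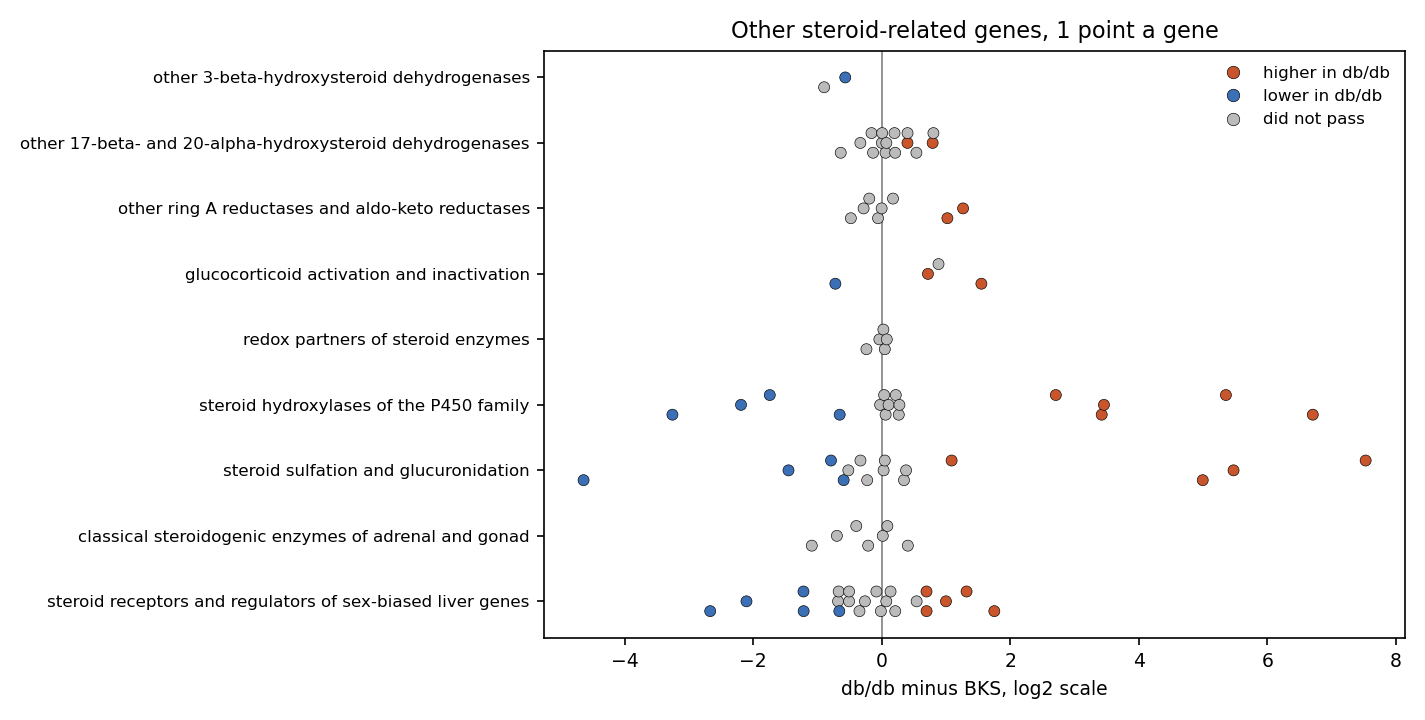
Difference between db/db and BKS on the log2 scale for the other steroid-related genes by list, 1 point a gene, orange for genes that rose, blue for genes that fell and grey for those that did not pass the test. Points are scattered vertically only to separate them. The called genes of the hydroxylases and of the conjugating enzymes lie on both sides of 0, from -4.64 (Ugt2b38) to 7.53 (Sult3a1).

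Among the other dehydrogenases at the same positions as Hsd3b5 and Hsd17b2, 1 of 2 and 2 of 15 passed, where 5.49% of all genes did. Of the other 3β-hydroxysteroid dehydrogenases 2 were measured, and Hsd3b7, which acts in bile acid synthesis, had a log2 difference of -0.57 (SE 0.11; limma adjusted p = 0.00645). Of 15 further 17β- and 20α-hydroxysteroid dehydrogenases 2 rose and none fell. They were Hsd17b10, a mitochondrial enzyme that also degrades branched-chain acyl groups (0.79, SE 0.14, adjusted p = 0.00549 with limma), and Hsd17b4, a peroxisomal enzyme of fatty acid oxidation (0.40, SE 0.10, adjusted p = 0.0376 with limma). Both are named for steroids but are best known for other substrates. The call of Hsd17b4 was lost in 8 of 9 fits with 1 array left out (0.33 without BKS 1 to 0.42 without db/db 1; adjusted p up to 0.100 without db/db 3), and that of Hsd3b7 in none of the 9. Under the other settings the calls of Hsd17b4, Hsd3b7 and Hsd17b10 were lost in 7, 5 and 3 of 14.

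Of 8 measured ring A reductases and aldo-keto reductases related to Akr1c6, 2 rose and none fell. Akr1c19 rose 2.03-fold (adjusted p = 5.4e-05 with limma), and Akr1d1, the steroid 5β-reductase, rose 2.40-fold (adjusted p = 0.00570 with limma). A second probe set of Akr1d1 stood at 0.67 on the log2 scale against 1.26 for the one used, and the call was lost in 3 of 14 settings, that with the second probe set among them. Srd5a3, a relative of Srd5a1, was at 0.17 (SE 0.22, adjusted p = 0.762 with limma).

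Of 4 measured genes of glucocorticoid activation and inactivation besides Hsd11b1, 2 rose and 1 fell. H6pd, which supplies the NADPH for Hsd11b1 in the endoplasmic reticulum, fell by 0.72 (SE 0.09, adjusted p = 4.05e-04 with limma). Serpina6, the corticosteroid-binding globulin, rose by 0.72 (SE 0.14, adjusted p = 0.00961 with limma). The calls of H6pd and Serpina6 were lost in 1 and 3 of 14 settings. Cbr1, a carbonyl reductase, rose 2.93-fold (adjusted p = 1.10e-04 with limma). Hsd11b2, which inactivates corticosterone in the kidney, was dim and at 0.88 (SE 0.44, adjusted p = 0.332 with limma). None of 5 measured redox partners of steroid enzymes passed, with 1 at an unadjusted p under 0.05 in limma. Their log2 differences ran from -0.24 to 0.08, and Cyb5a, the cytochrome b5 that helps Cyp17a1 cleave the side chain, was at 0.08 (SE 0.10, adjusted p = 0.769 with limma).

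Of 16 measured P450 enzymes that hydroxylate steroids, 5 rose and 4 fell. Cyp2b9 rose 104-fold and Cyp2b10 10.7-fold (adjusted p = 2.90e-08 and 2.28e-04 with limma), and Cyp7b1 fell 9.55-fold and Cyp2c70 3.35-fold (adjusted p = 2.66e-07 and 4.76e-06 with limma). The BKS signals of Cyp2b9 were low (44.2 to 175.6), so its fold depends on the amount added before taking logs: the log2 difference was 6.70 with 16 and 6.08 with 64. The remaining calls, named after their values were seen, were Cyp2c39, Cyp2c38 and Cyp2b13 (higher) and Cyp2d9 and Cyp1a2 (lower). Of these, the call of Cyp1a2 was lost in 6 of 9 fits with 1 array left out and in 4 of 14 settings. Probe sets of these families can bind more than 1 close relative.

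Of 15 measured enzymes that couple steroids to sulfate or glucuronic acid, 4 rose and 4 fell. All 4 that rose were sulfotransferases, with Sult3a1 up 184-fold and Sult1a1 2.12-fold (adjusted p = 1.49e-04 and 7.89e-04 with limma), beside Sult1e1, which sulfates estrogens, and Sult2a2, a hydroxysteroid sulfotransferase. All 4 that fell were glucuronosyltransferases, with Ugt2b38 down 24.9-fold and Ugt2b35 1.73-fold (adjusted p = 1.40e-05 and 0.00520 with limma), beside Ugt2b1 and Ugt2b37. The second pair of each direction was named after its values were seen. This split holds only for the called genes. Among those that did not pass, the sulfotransferase Sult2a8 stood at -0.52 (SE 0.14, adjusted p = 0.0538 with limma) and Sult2b1 at 0.03. The glucuronosyltransferases that did not pass were Ugt2a3 (0.38, SE 0.13), Ugt2b36 (0.05), Ugt2b34 (-0.33) and Ugt2b5 (-0.23). The BKS signals of Sult3a1 were low except on BKS 3 (868.9, against 2.00 to 48.6 on the others), so its fold has no settled size. Its log2 difference was 7.53 over all arrays, 8.47 when BKS 3 was left out, 8.42 with 1 added before taking logs and 6.49 with 64. The calls of Sult1a1, Sult2a2, Ugt2b35, Ugt2b1 and Ugt2b37 were lost in 2, 3, 3, 5 and 3 of 14 settings. The calls of Ugt2b1 and Ugt2b37 were lost in 6 and 7 of 9 fits with 1 array left out.

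The list of steroid receptors and of regulators of sex-biased liver genes changed in both directions, 5 of 22 higher and 5 lower (2.89% and 2.60% of all genes). Not every receptor on it was listed for an action on sex-biased genes. Trim24, a coregulator of nuclear receptors, rose 3.37-fold (adjusted p = 2.55e-05 with limma), and Nr1i3, the receptor CAR, rose 2.00-fold (adjusted p = 0.0155 with limma). Other probe sets of Trim24 stood at 0.82 (SE 0.30) and 0.58 (SE 0.43) on the log2 scale, against 1.75 for the one used. Foxa1, a transcription factor that opens chromatin, fell 4.30-fold (adjusted p = 2.45e-04 with limma). Socs2, an inhibitor of growth hormone signalling that the hormone itself induces, fell 6.36-fold (adjusted p = 0.00324 with limma). Its other probe sets ran from -2.08 to -0.44 on the log2 scale, against -2.67 for the one used. The other calls, named after their values were seen, were Tox, Nr1h4 and Nr1i2 (higher) and Ghr, the growth hormone receptor, Bcl6 and Onecut1 (lower). Another probe set of Bcl6 stood at -0.29 (SE 0.32), against -1.22 for the one used. Others of Ghr stood at -0.42 (SE 0.12) and -0.16 (SE 0.39), against -0.66. Stat5b, through which growth hormone acts on the male pattern, was at -0.26 (SE 0.17, adjusted p = 0.482 with limma). Igf1 was at -0.08 (SE 0.15, adjusted p = 0.841 with limma) and Cux2 at 0.21 (SE 0.41, adjusted p = 0.853 with limma). These were picked from the genes that did not pass. The call of Nr1i3 was lost without db/db 1 and without db/db 2 (adjusted p = 0.0521 and 0.0538 with limma). With 1 array left out the calls of Nr1h4, Nr1i2, Tox and Onecut1 were lost in 2, 3, 3 and 6 of 9 fits. Under the other settings those of Socs2, Nr1h4, Nr1i3 and Bcl6 were lost in 1, 2, 3 and 3 of 14, and those of Tox, Onecut1, Nr1i2 and Ghr in 4, 4, 5 and 5.

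None of 7 measured genes of adrenal and gonadal steroid synthesis passed between the genotypes, with 1 at an unadjusted p under 0.05 in limma. Their log2 differences ran from -1.09 for Nr5a1, the regulator of these enzymes, to 0.41 for Star, and BKS 1 raised the BKS values of several of them.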

How the data were processed

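Total RNA, 8 µg per sample from frozen 100 mg aliquots of liver, was labelled with biotin and hybridised to single-colour Affymetrix arrays, per the labels' protocols. The deposited values are linear intensity signals, 1 for each probe set of each array. The trimmed mean of every deposited intensity column (2% at each end) was close to 500 (500.003 to 500.005), so the arrays had been scaled; the software is not given in the sources used here. Detection calls were not used here, so no signal is called absent, and precision is limited by how many arrays there are.

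Signals were taken as log2(value + 16). Array medians then spanned 0.60, above a limit of 0.25, so arrays were quantile normalized (limma 3.58.1, R 4.3.3). Of the probe sets 34945 had 1 symbol (34741 matched RefSeq gene IDs, none renamed), 932 several, 9160 were not listed and 64 were controls. The brightest probe set stood for a gene. The 18193 genes were fitted with limma (lmFit, eBayes with a trend, two-sided, group only) and Benjamini-Hochberg adjustment at 0.05; the fit was tested on simulated data. "Rose" and "fell" mean past that threshold. Enzymes, lists and rules were chosen with earlier results of these data known. All enzymes were named, from each list the called genes with the smallest adjusted p (up to 2 per direction), and the 3 genes most parallel to each enzyme (a selection is printed). Further called genes, and some that did not pass, are named outside this rule.

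Equal sample numbers were checked as pairs: deviations from the group means correlated at -0.07 to 0.17 over genes, so they were not taken as pairs. For BKS 2 and BKS 4 the db/db array with the highest correlation had the same number, and for BKS 1 and BKS 3 it had another. Upstream sequences came from RefSeq (GRCm38.p6) and were aligned with Biopython 1.88, end gaps free. Identity between the proteins was not analysed here.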

Additional observations from a re-analysis of the deposited data

Results flagged for a closer look

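In Hsd3b5, BKS 2 lay far below the other BKS arrays, with 0.836 of the group's range between it and its nearest neighbour (12.79 on the log2 scale against 13.75 to 13.93). In the db/db group db/db 1 lay far above the others for the same gene (0.919 of the range, 6.46 against 4.61 to 4.76). BKS 2 was also low for Hsd3b2 (0.867 of the range, 11.53 against 12.40 to 12.53). For Hsd3b3, db/db 4 was low (0.933 of the range, 12.19 against 12.67 to 12.71). BKS 1 was high for Hsd3b1 (0.897 of the range, 9.97 against 4.63 to 5.18), high for Cyp1a2 (0.778 of the range, 14.72 against 14.53 to 14.57) and low for Hsd17b4 (0.859 of the range, 13.23 against 13.54 to 13.59). Of 104 sets of group values looked at 7 had such an array, and chance gives about 1 in 20. The causes were not tested.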

How the results depend on the processing

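On the probe sets that stand for them, the 7 enzymes kept their direction under all alternatives run; the second Hsd3b3 probe set did not keep its own within the high 18S arrays (0.85 against -0.36). With 1 array left out, the log2 difference was -8.96 to -8.31 for Hsd3b5, -3.10 to -2.76 for Hsd3b2, -0.56 to -0.37 for Hsd3b3, 3.41 to 3.69 for Cyp17a1, -1.52 to -1.29 for Hsd17b2, -0.36 to -0.24 for Akr1c6 and 0.09 to 0.21 for Hsd11b1.

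Over all genes 526 were higher and 473 lower. These counts became 323 and 212 with median centring in place of quantile normalization, 254 and 212 without the mean-variance trend, 216 and 220 with the low 18S arrays alone, 241 and 224 with the high 18S arrays alone (both added after the data were seen) and 747 and 751 with the 18S set as a block. The genes lower were 273 with the mean of all probe sets and 260 with the probe set of largest variance. With 1 array left out, 309 to 519 genes were higher and 283 to 434 lower, both lowest without db/db 3. The enzymes called lower were 5 in place of 3 when only genes above the median were tested, with Hsd3b3 and Akr1c6 added. Of the other steroid-related genes (20 higher, 15 lower), 12 were higher with the low 18S arrays alone, and 9, 7 and 6 were lower with median centring, without the trend and with the low 18S arrays alone. Their median of 0.03 had the other sign with the low 18S arrays fitted alone (-0.073) and within them (-0.079). The replicate block gave 596 genes higher and 550 lower, and both it and the 18S block called 4 enzymes lower in place of 3. For the replicate block, the samples share only a number. The causes were not tested. The arrays had no detection calls in use, so low signals such as Hsd3b5 in db/db have no stated floor.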
